A study of Mus musculus with 6 samples.

Results

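Abca1 and 7 further genes of sterol sensing, namely Abcg1, Nr1h2, Nr1h3, Mylip, Srebf1, Srebf2 and Scarb1, were followed in RNA-seq libraries of mouse embryonic stem (ES) cells with and without intact Morc3. The 8 genes were taken by symbol from the 24054 gene rows of the count files, and all 8 passed the filter on low counts that left 12222 genes for testing. The set was built around Abca1, which was selected on its rise in Morc3 ko over wild type in these same libraries. Its change is therefore given as a description without a test, and the question put to the data was whether other genes under the same regulators changed with it.

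The wild-type group comprised 3 libraries (p42, p43 and p56) of wt26, a wild-type mouse ES cell line, whose numbers the labels do not explain. The Morc3 ko group comprised 3 libraries, taken here as 1 for each of the 3 single-clone Morc3 ko lines that the paper lists. These lines were made from wt26 with Cas9 and guide RNAs against Morc3. Both groups grew without feeder cells in medium with serum and LIF, and no treatment of the cultures is described for these libraries. The making of the ko lines included transfection and a short puromycin selection, which is not described for wild type. Because the groups are 1 line and clones of that line, p-values measure the spread between these cultures and clones only. Each library held between 10740618 and 14123131 sense gene counts. Morc3, an ATPase of the MORC family, read 277, 272 and 302 CPM (counts scaled to TMM library sizes) in the wild-type libraries, always listed in the order p42, p43, p56, and 77.8, 138 and 135 CPM in ko 1, ko 2 and ko 3. Its log2 fold change, ko over wild type, was -1.28 (SE 0.16, adjusted p = 8.4e-04, edgeR quasi-likelihood test), so the transcript was lower but not gone. With edgeR's robust fit the adjusted p was 0.018, above the threshold of 0.01. Leaving out wild-type p56 moved the number of genes called at that threshold from 156 to 385. This is 3.13% of the genes in that fit, and values without p56 are given beside the calls that it changed.

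All 10 markers of ES cells were detected, and their summed level was 6356 to 6456 CPM in ko and 5836 to 5933 CPM in wild type. The largest part of the difference between these sums came from Dppa5a. None of the 10 was called, against 1.28% of all genes tested. Their median log2 fold change was 0.065, with 8 fits above and 2 below 0. An unadjusted p under 0.05 in the edgeR test was found for 2 of the 10, and for 14.3% of all genes tested. Of 8 macrophage markers, chosen because macrophages are a classical site of Abca1 expression, Csf1r, Lyz2, Fcgr1 and Emr1 were at 0 counts in every library. The list summed to 7.11 to 8.44 CPM in ko and 7.70 to 8.04 CPM in wild type. Most of this sum came from Cd68, the 1 marker of the list that passed the filter (log2 fold change -0.07, not called). Ptprc, Itgam and Cd14 had 4, 32 and 9 counts over the ko libraries and 3, 37 and 5 over the wild-type libraries. Of 11 endoderm markers only Gata4 and Amn passed the filter and neither was called, Ttr was at 0 throughout, and the list summed to 1.91 to 3.79 CPM in ko and 2.86 to 6.02 CPM in wild type. Of 8 fibroblast markers 2 passed the filter, and 1 of them, Thy1, was called lower in ko, against 0.417% of all genes tested. The list summed to 7.59 to 8.41 CPM in ko and 12.4 to 13.7 CPM in wild type, and most of this sum came from Thy1. Col1a1, Col1a2 and Col3a1 had 16, 5 and 1 counts over the ko libraries and 13, 7 and 1 over the wild-type libraries. Pdgfra and Pdgfrb had 13 and 74 counts in ko and 28 and 124 in wild type, and Postn and Dcn were at 0. The part of these lists in the results was not tested. In bulk RNA, fewer cells of a type and less RNA per cell cannot be told apart.

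Cells balance their sterols with a pair of opposing systems. When oxysterols rise, the liver X receptors (LXRs, encoded by Nr1h2 and Nr1h3) bind DNA together with retinoid X receptors at direct repeats of AGGTCA spaced by 4 bases (DR4) and switch on export genes such as Abca1 and Abcg1, the ubiquitin ligase Mylip, and Srebf1. When sterols fall, SREBP-2, the product of Srebf2, is released from the endoplasmic reticulum and switches on cholesterol synthesis and uptake.

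The promoter window of Abca1 is shown because the proximal promoter of this gene is known to carry an LXR element. Windows of 300 bases, from 250 before to 50 after the annotated start, were read from RefSeq sequences of GRCm38.p6, and 6 of the 8 genes had at least 1 window. Capitals mark, in order, an E-box (CACGTG, at -147 from the start site), the 16 bases closest to a DR4 (at -67) and a TATAAA box (at -29) in the window at chr4:53159846-53160145, minus strand. Positions count from the start used for this window, 53159895, where the GENCODE gene also begins. The RefSeq gene span begins further out, at 53159988, so the 16 bases and the TATAAA box lie within that span.
Abca1 promoter: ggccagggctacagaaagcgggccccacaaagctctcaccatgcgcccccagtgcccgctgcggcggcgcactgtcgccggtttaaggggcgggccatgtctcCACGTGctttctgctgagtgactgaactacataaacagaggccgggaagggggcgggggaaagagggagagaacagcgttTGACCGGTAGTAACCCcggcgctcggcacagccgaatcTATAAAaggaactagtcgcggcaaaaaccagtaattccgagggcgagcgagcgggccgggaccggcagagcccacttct

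The E-box sequence was present in 7.15% and TATAAA in 13.6% of all 32851 windows, searched on both strands. No member window held a DR4 with at most 1 mismatch in each half-site, which 1.75% of windows did, nor a sterol regulatory element (TCACNCCAC), which 1.24% did. The search was then repeated, as a choice made after that outcome, for the stretch with the fewest mismatches to the repeat over its 12 half-site positions. Abca1, Fasn, which encodes fatty acid synthase, and 1 of 3 windows of Srebf1 had 3 mismatches, a level reached by 21.9% of all windows. Among the windows of LXR target genes, those of Arl4c and Eepd1 had 3 mismatches as well. The stretches are printed in the direction of the repeat, with the half-sites in capitals.
Abca1 at -67 (chr4:53159947-53159962): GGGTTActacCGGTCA
Fasn at -225 (chr11:120824757-120824772): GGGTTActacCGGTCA
Srebf1 window at -182 (chr11:60210638-60210653): GGGTTActggCGGTCA
Srebf2 at -172: GGGTGAtggtGCGTCA
Nr1h2 at -139: AGTTCCggaaAGTTCT
Nr1h3 at -50 (1 of 2 windows): AGGTCCcggcACGGCC
Mylip at 29: AGTTCCcgggAGCTAC

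The Abca1 and Fasn stretches were identical over all 16 bases, and no other gene among the 32851 windows held this sequence. The Srebf1 stretch differed from it at 2 bases. The Srebf2, Nr1h2 and Nr1h3 stretches had 4 mismatches to the repeat and that of Mylip had 5, levels reached by 76.9% and 99.8% of windows. Both Nr1h3 windows held the same stretch, which lies at -131 in the other window. A match describes these letters only, and no binding was measured here.

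Abca1, the transporter that loads cholesterol and phospholipid onto lipid-poor apolipoprotein A-I, was at a low level in wild-type cells and well detected in all ko clones. It had 811, 895 and 844 counts in the 3 ko clones and 72, 74 and 138 counts in wild type. These counts correspond to 74.9, 79.0 and 76.6 CPM in ko and to 5.21, 5.18 and 10.7 CPM in wild type. The groups did not overlap, and the lowest ko library was 7.03 times the highest wild-type library. The ko mean of 76.8 ± 2.05 CPM (SD, n = 3) was 10.95 times the wild-type mean of 7.02 ± 3.15 CPM (SD, n = 3). The log2 fold change came to 3.46. Its 95% interval from the fit ran from 3.04 to 3.88 and does not allow for the choice of Abca1 on this rise. This was the 9th largest log2 fold change of the 12222 genes.

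The ko clones were close to each other, the highest being 1.05 times the lowest, whereas wild-type p56 was 2.06 times the lowest wild-type library. Without p56 the log2 fold change of Abca1 was 3.88. Reads on the strand opposite to the gene were few, with 3 counts over the ko libraries and 4 over the wild-type libraries. Abca1 spans chr4 53030789 to 53159988 on the minus strand (RefSeq, GRCm38).

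**Figure D1:**
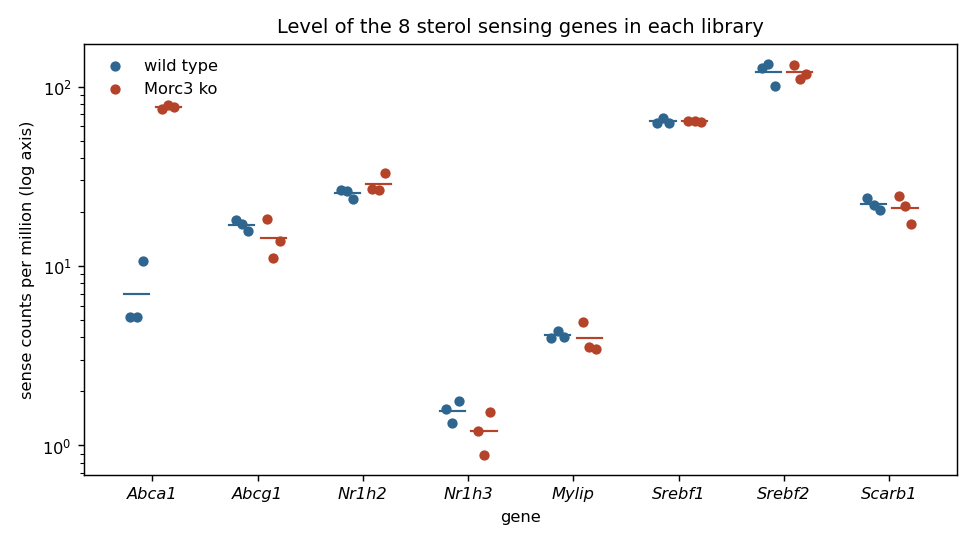
Sense-strand CPM (log axis) of the 8 genes in each of the 3 wild-type (blue) and 3 Morc3 ko (red) libraries, with points for libraries and lines for group means. Only Abca1 has groups that do not overlap, at 5.18 to 10.7 CPM in wild type and 74.9 to 79.0 CPM in ko.

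None of the other 7 genes was called, against 1.28% of all genes tested, and none had an unadjusted p under 0.05, against 14.3% of all genes tested. DESeq2, which called 1.79% of its genes, and limma-voom, which called 1.22%, also called 0 of the 7. The ko and wild-type libraries overlapped in each of them. Positions are from the GENCODE annotation of GRCm38. Nr1h2 (chr7 44549616 to 44553951, minus strand), which encodes LXR-beta, read 26.9, 26.4 and 32.9 CPM in ko and 26.5, 26.3 and 23.7 CPM in wild type. Its log2 fold change was 0.17 (95% interval -0.06 to 0.40, adjusted p = 0.529). Nr1h3 (chr2 91184061 to 91202834, minus strand), which encodes LXR-alpha and is itself an LXR target in some tissues, had 13, 10 and 17 counts in ko and 22, 19 and 23 counts in wild type, or 0.883 to 1.54 CPM and 1.33 to 1.78 CPM. Its log2 fold change was -0.37 with a wide 95% interval of -1.03 to 0.30 (adjusted p = 0.670), which leaves room for a change within these bounds.

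Srebf1 and Srebf2, which encode the membrane-bound precursors of the SREBP factors, had close means in both groups. Srebf1 (chr11 60199089 to 60222581, minus strand) read 64.6, 64.0 and 63.3 CPM in ko and 62.6, 67.1 and 62.7 CPM in wild type, with a log2 fold change of -0.0039 (95% interval -0.15 to 0.14, adjusted p = 0.989). Srebf2 (chr15 82147181 to 82205379, plus strand) read 132, 111 and 117 CPM in ko and 127, 134 and 101 CPM in wild type, with a log2 fold change of -0.0099 (95% interval -0.23 to 0.21, adjusted p = 0.983). For Srebf1 the interval leaves room for a change of about 0.15 on the log2 scale.

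The remaining 3 genes act on sterol flux. Abcg1 (chr17 31057675 to 31117988, plus strand), which exports cholesterol to high-density lipoprotein, read 18.2, 11.1 and 13.7 CPM in ko and 18.0, 17.2 and 15.8 CPM in wild type. Its log2 fold change was -0.25 (95% interval -0.59 to 0.10, adjusted p = 0.541), and 2 of 3 ko libraries lay below the wild-type range. Mylip (chr13 45389742 to 45412022, plus strand), a ubiquitin ligase, read 4.90, 3.53 and 3.45 CPM in ko and 3.98, 4.34 and 4.02 CPM in wild type (log2 fold change -0.06, 95% interval -0.48 to 0.37, adjusted p = 0.933). Scarb1 (chr5 125277087 to 125341094, minus strand), the receptor for high-density lipoprotein, read 24.7, 21.5 and 17.2 CPM in ko and 23.9, 21.98 and 20.6 CPM in wild type (log2 fold change -0.07, 95% interval -0.35 to 0.21, adjusted p = 0.868).

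Levels were then compared between genes per length of exon (RPKM, here CPM divided by the exon length in kilobases). In wild type, the order was Srebf2 at 16.8, Srebf1 at 11.4, Nr1h2 at 7.61, Scarb1 at 2.61, Abcg1 at 2.33, Mylip at 1.27, Abca1 at 0.677 and Nr1h3 at 0.623 RPKM. In ko, Abca1 stood at 7.42 RPKM, just under Nr1h2 at 8.57 RPKM. The ranges of Scarb1 and Abcg1 overlapped in both groups, as did those of Abca1 and Nr1h3 in wild type, although Scarb1 lay above Abcg1 within each library. Nr1h2 lay above Nr1h3 in every library of both groups.

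Over the 6 libraries, the Pearson correlation of the log2 CPM of Abca1 with the other members ran from -0.58 for Abcg1 to 0.50 for Nr1h2. The libraries share their group, so these values carry the group difference of each gene with them. The patterns most like that of Abca1 were those of Mfap3l (r = 0.998), Polr2m (r = 0.998), Acad9 (r = 0.996), Egr1 (r = 0.996) and Rpe (r = 0.994). The most opposite were Ptgfrn (r = -0.993), Fam83d (r = -0.993), Gm7325 (r = -0.990), Fggy (r = -0.989) and Piwil4 (r = -0.987). None of these 10 genes belongs to the sterol lists used here.

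A list of 24 LXR target genes was examined next. Without Abca1, 17 of its 23 genes were tested and none was called, against 1.28% of all genes tested. An unadjusted p under 0.05 was found for 5 of the 17, and for 14.3% of all genes. limma-voom called none of them and DESeq2 called Lpl. The median log2 fold change of the 17 genes was -0.0039 (-0.021 without p56), beside -0.00010 over all genes tested, with 8 fits above and 9 below 0. Libraries of the groups did not overlap, with ko higher, for 3 of the 17 (9.67% of all genes tested) and, with ko lower, for 3 (10.2% of all genes tested).

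Lpl, which encodes lipoprotein lipase, read 15.7, 13.5 and 17.6 CPM in ko and 8.04, 9.87 and 5.56 CPM in wild type. Every ko library lay above every wild-type library, with a log2 fold change of 0.99 (SE 0.18, adjusted p = 0.0131). Lpl passed the threshold without p56 (log2 fold change 0.80, adjusted p = 7.8e-04) and without p43 (1.19, adjusted p = 0.0047), and Lpl and Tgm2 both passed it without the filter on low counts, a fit that called 1.63% of its genes. Tgm2, which encodes a transglutaminase, went the other way with 17.7, 12.0 and 12.6 CPM in ko and 25.2, 23.5 and 57.0 CPM in wild type. Its log2 fold change was -1.31 (SE 0.30, adjusted p = 0.042), and without p56, where it was highest, it was -0.79 with an adjusted p of 3.9e-04. Leaving out p56 thus gave 3 calls among the 17 genes, Lpl higher and Tgm2 and Pltp lower, in a fit that called 3.13% of all its genes. Pltp, which encodes a phospholipid transfer protein, had a log2 fold change of -0.34 (adjusted p = 0.207) with p56 and of -0.46 (adjusted p = 0.0022) without it.

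Fasn, whose window holds the same 16 bases as that of Abca1, read 577, 582 and 599 CPM in ko and 563, 567 and 560 CPM in wild type. The libraries did not overlap, but the log2 fold change was only 0.06 (95% interval -0.06 to 0.17, adjusted p = 0.707). Apoe, an apolipoprotein that accepts exported lipid, read 537, 610 and 589 CPM in ko and 514, 553 and 408 CPM in wild type (log2 fold change 0.24, adjusted p = 0.289). Mertk, a receptor for the uptake of dead cells, had a log2 fold change of -0.44 (adjusted p = 0.436). The sterol exporters Abcg5 and Abcg8 and the bile acid enzyme Cyp7a1 had no count in any library.

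**Figure D2:**
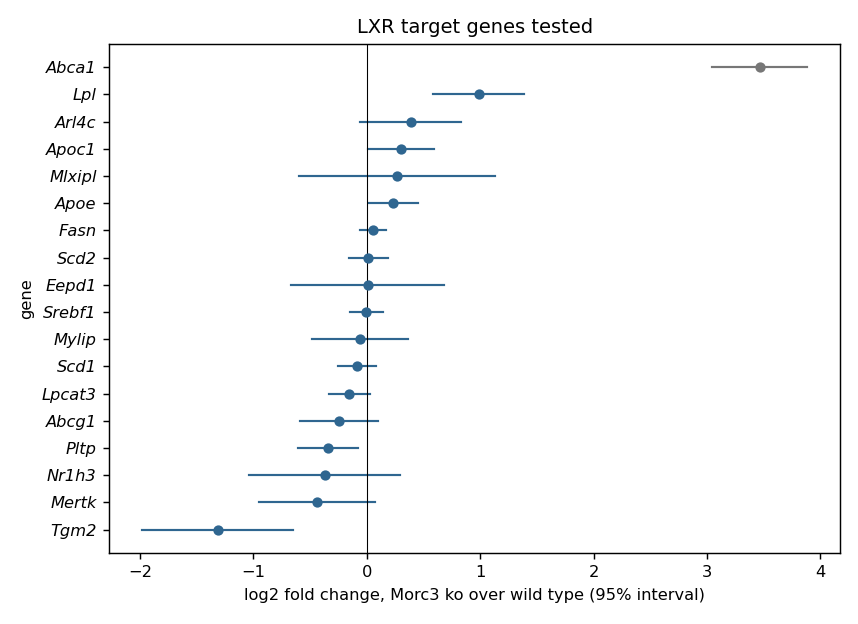
Log2 fold change (Morc3 ko over wild type, x axis) with its 95% interval for the 18 LXR target genes tested, 3 libraries per group. Abca1, shown in grey because it was picked for its rise, lies at 3.46, and its interval does not allow for that choice. The other 17 genes (blue) lie between -1.31 and 0.99 with none called.

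The partners of the receptors followed. None of 20 LXR partners and coregulators was called, against 1.28% of all genes tested, and 3 had an unadjusted p under 0.05, against 14.3%. Their median log2 fold change was 0.08 (0.015 without p56). Rxrb was the most abundant retinoid X receptor, at 14.96 RPKM in ko and 14.4 RPKM in wild type. Rxra had a log2 fold change of -0.28 (adjusted p = 0.227). Ncor1, a corepressor that holds unliganded receptors inactive, read 157, 150 and 153 CPM in ko and 128, 132 and 125 CPM in wild type (log2 fold change 0.26, SE 0.06, adjusted p = 0.044). None of 12 further genes tested from a list of other Abca1 regulators was called, against 1.28% of all genes tested. An unadjusted p under 0.05 was found for 1 gene of this list, against 14.3% of all genes. The widest fits in it were those of Zfp202, a repressor (-0.84, adjusted p = 0.389), Ppard (-0.44, adjusted p = 0.417) and Nr5a2 (0.23, adjusted p = 0.184).

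The opposing arm was read from 15 SREBP processing genes and 26 SREBP-2 targets and cholesterol synthesis genes, all of them tested. No processing gene was called and none had an unadjusted p under 0.05, against 1.28% and 14.3% of all genes tested. Insig1, which retains the SREBP precursor in the endoplasmic reticulum, had a log2 fold change of 0.14 (adjusted p = 0.386). Among the 26 targets, 1 gene was called higher, against 0.859% of all genes tested, and none lower, against 0.417%. The median log2 fold change was 0.05, with 17 fits above and 9 below 0. Of the 26 genes, 5 had an unadjusted p under 0.05, against 14.3% of all genes tested.

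The called gene was Sqle, which encodes squalene epoxidase, an early oxygen-requiring step of cholesterol synthesis. Sqle read 170, 185 and 182 CPM in ko and 119, 114 and 108 CPM in wild type. Every ko library lay above every wild-type library, with a log2 fold change of 0.65 (SE 0.07, adjusted p = 1.5e-04). Hmgcs1, a synthase early in the same pathway, read 272, 298 and 316 CPM in ko and 273, 254 and 197 CPM in wild type (log2 fold change 0.29, adjusted p = 0.213). Tm7sf2, a sterol reductase, had a log2 fold change of -0.27 (adjusted p = 0.345). Sqle was thus called alone among the genes of its pathway.

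**Figure D3:**
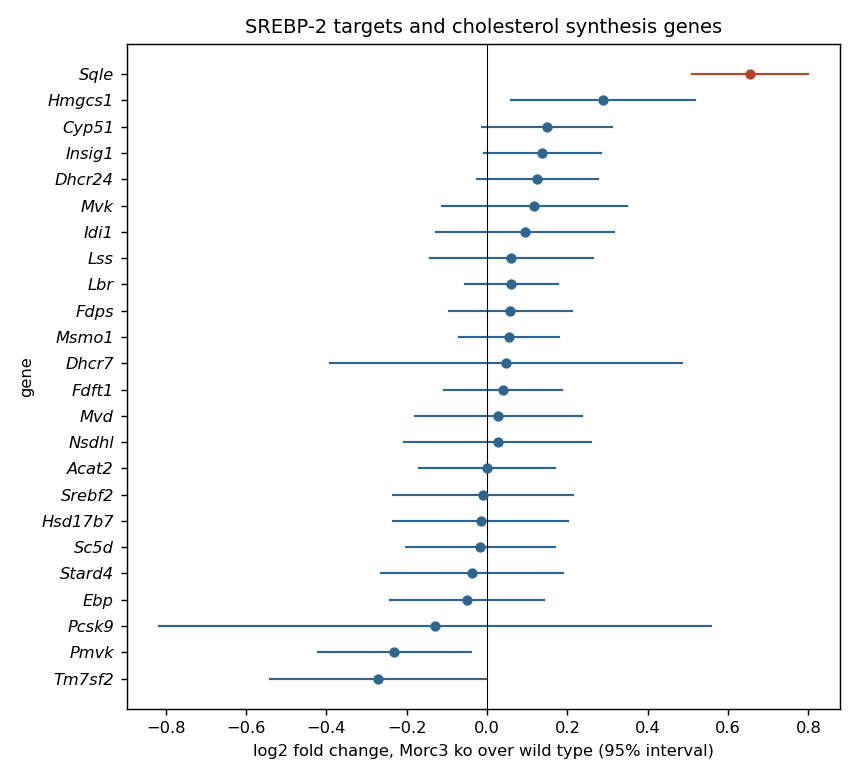
Log2 fold change (Morc3 ko over wild type, x axis) with its 95% interval for 24 of the 26 SREBP-2 targets and cholesterol synthesis genes, 3 libraries per group. Sqle (red) is the called gene at 0.65, and the others (blue) lie between -0.27 and 0.29.

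Of 17 SREBP-1 targets and fatty acid synthesis genes, none was called, against 1.28% of all genes tested. An unadjusted p under 0.05 was found for 4 of them, against 14.3% of all genes. Their median log2 fold change was -0.06 (-0.020 without p56). Acly, which makes acetyl-CoA from citrate, read 660, 689 and 689 CPM in ko and 587, 578 and 557 CPM in wild type (log2 fold change 0.24, SE 0.05, adjusted p = 0.035). The widest fits were those of Thrsp (-0.82, adjusted p = 0.374), Acss2, an acetyl-CoA synthetase (-0.38, adjusted p = 0.407), and the desaturase Fads2 (-0.31, adjusted p = 0.085).

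Of 34 sterol transport and storage genes, 29 were tested. Against 0.417% of all genes tested, 1 was called lower. This was Lipa, the lysosomal acid lipase that frees cholesterol from its esters, with 3.23, 2.74 and 3.18 CPM in ko and 7.10, 5.53 and 6.72 CPM in wild type. Its log2 fold change was -1.08 (SE 0.18, adjusted p = 0.0067). The Lipa call was lost without any 1 of ko 1, ko 2, ko 3 or wild-type p42, with adjusted p of 0.025 to 0.069, and in limma-voom, with an adjusted p of 0.012. Cyp27a1 (-0.59, adjusted p = 0.619) and Gramd1c (-0.56, adjusted p = 0.585) had the next widest fits. Among transporters related to Abca1 no call was made. Of 6 other ABCA genes tested none was called, against 1.28% of all genes tested, with a median log2 fold change of -0.28. Abca5 (-0.75, adjusted p = 0.144) and Abca3 (-0.67, adjusted p = 0.054) read lower in every ko library, which held for 10.2% of all genes tested. The fit above 0 was that of Abca8b, at a log2 fold change of 0.34 (adjusted p = 0.734). Besides Abcg1, Abcg2 was the ABCG gene tested (log2 fold change 0.11, adjusted p = 0.585).

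The genome around Abca1 was read last. Within 500 kb of the gene, 12 further genes had rows in the files, and 3 of them, Nipsnap3b, Slc44a1 and Fsd1l, passed the filter. None was called in the edgeR fit, but in all 3 every ko library lay above every wild-type library, which held for 9.67% of all genes tested. Nipsnap3b, which lies 8.7 kb beyond the 3' end of Abca1, read 36.1, 34.5 and 34.8 CPM in ko and 27.3, 25.2 and 34.5 CPM in wild type (log2 fold change 0.28, adjusted p = 0.272). Its lowest ko library and p56 were equal to the digits shown, and with library sizes alone ko 2 fell below p56, at 33.9 against 34.3 CPM. Slc44a1, a choline transporter that begins 280 kb upstream, read 86.6, 83.3 and 86.7 CPM in ko and 64.7, 60.0 and 77.6 CPM in wild type (log2 fold change 0.34, adjusted p = 0.073). Fsd1l, 471 kb upstream, read 33.2, 41.2 and 44.4 CPM in ko and 25.7, 23.5 and 31.6 CPM in wild type (log2 fold change 0.56, adjusted p = 0.043), and it was called by DESeq2 (adjusted p = 0.0043) and without the filter on low counts (adjusted p = 0.0062).

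Wild-type p56 was the highest wild-type library for each of these neighbours, as it was for Abca1. Without p56, where 3.13% of genes were called, all 3 were called, with log2 fold changes of 0.42 for Nipsnap3b (adjusted p = 0.0041), 0.46 for Slc44a1 (adjusted p = 1.4e-04) and 0.69 for Fsd1l (adjusted p = 2.1e-04). These changes remained far below the 3.88 of Abca1 without the same library.

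AI427809, named Mexis in RefSeq, is a long non-coding RNA annotated 101 kb upstream of Abca1 (chr4 53261356 to 53270232). It was not on the list of LXR target genes used here, so the calls counted for that list leave it out. The stretches closest to a DR4 in its promoter windows had 3 and 4 mismatches, levels reached by 21.9% and 76.9% of all windows. AI427809 had 8, 10 and 9 counts in ko and 0, 2 and 0 counts in wild type, which was below the filter. The 27 counts in ko against 2 in wild type give a ratio of 16.7 after scaling for depth, with a 95% binomial interval of 4.198 to 145 that covers counting error only. Every ko library lay above every wild-type library, and in a fit without the filter, added after the counts were seen, the adjusted p was 0.0049. The 8 other genes of the region had 0 or 1 count in all libraries together. Lexis1, a long non-coding RNA annotated 44.9 kb upstream, was not among the genes counted. The part of the chromosomal position of Abca1 in its rise was not tested.

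**Figure D4:**
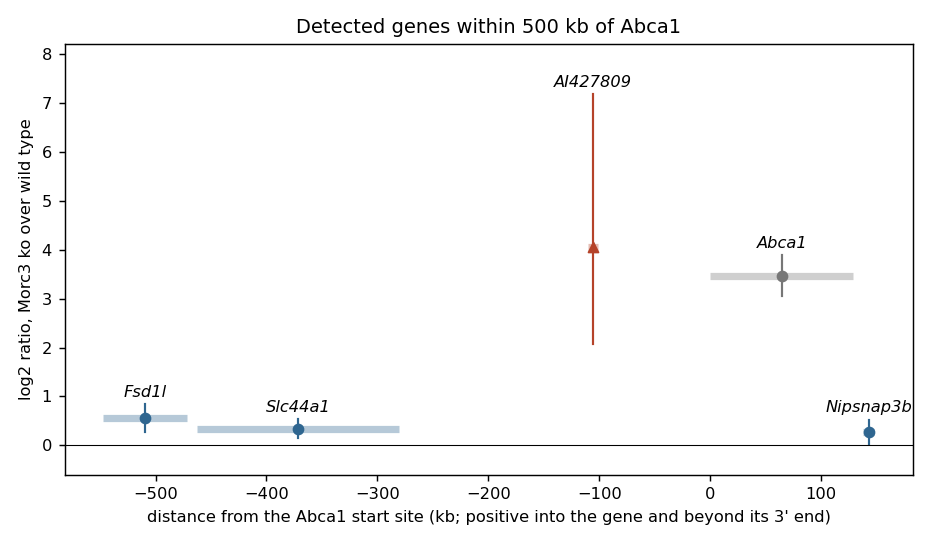
Log2 ratio of Morc3 ko over wild type (y axis) for the detected genes within 500 kb of Abca1, placed by distance in kb from the Abca1 start site, with thick bars for gene spans and thin lines for 95% intervals. Circles are fitted values, from 0.28 for Nipsnap3b to 3.46 for Abca1, and the triangle is the depth-scaled count ratio of AI427809, with 27 counts in ko and 2 in wild type. The interval of Abca1 does not allow for its choice on this rise.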

How the data were processed

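Total RNA of the 6 ES cell libraries was depleted of ribosomal RNA and sequenced as stranded paired ends. The authors aligned the reads to mm10 with STAR, whose gene counting gave the deposited raw counts per gene and strand. The gene annotation is not given in the sources used here. The sense column was used. Rows of unassigned reads, which held 6.87% to 7.82% (unmapped), 16.3% to 17.4% (multimapping), 11.2% to 13.1% (no feature) and 0.469% to 0.495% (ambiguous) of the total, were left out.

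The counts were tested with edgeR 4.0.16 in R 4.3.3 (quasi-likelihood test, TMM, filterByExpr at its defaults of 10 counts and 15 in total, prior count 0.125). P-values were two-sided and adjusted over all 12222 genes by Benjamini-Hochberg, and a call needed an adjusted p under 0.01. SE is the log2 fold change over the square root of F. Exon lengths and the positions of members other than Abca1 came from GENCODE, and promoters and the positions of Abca1 and its neighbours from RefSeq, both for GRCm38. limma-voom (limma 3.58.1) and DESeq2 1.42.0 were alternatives, beside other scalings, filters, strand-blind counts and each library left out. The members, gene lists and named genes (Morc3, the members, called list genes, up to 3 widest fits per list, neighbours within 500 kb and the 5 most and least alike patterns) were chosen with earlier results of these data known. Further genes were named after their values were seen. Some genes of the lists are not reported here by name.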

Additional observations from a re-analysis of the deposited data

How the results depend on the processing

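No paired analysis was possible because the ko libraries are numbered 1 to 3 and the wild-type libraries p42, p43 and p56, so that the groups share no number. Over 16 alternatives, the 7 members other than Abca1 were never called, and Sqle was called alone among the SREBP-2 targets in each. The log2 fold change of Abca1 lay between 3.28 and 3.88. Of all genes tested, 156 were called, against 286 without the filter on low counts, 254 with DESeq2, 331 at an adjusted p under 0.05 and 72 to 385 with 1 library left out (72, 73 and 96 without ko 3, ko 2 and ko 1, and 385 without wild-type p56). LXR targets other than Abca1 came to 2 calls without the filter, 1 with DESeq2, 2 at an adjusted p under 0.05 and 0 to 3 with 1 library left out. Signs of values near 0 turned. Srebf1 gave 0.00064 with DESeq2 and 0.0015 with counts that ignore strand. With 1 library left out, Srebf1 ran from -0.019 to 0.031, Srebf2 from -0.12 to 0.074, Mylip from -0.23 to 0.034 and Scarb1 from -0.19 to 0.062. Abcg1 ran from -0.45 to -0.09, Nr1h2 from 0.065 to 0.23 and Nr1h3 from -0.58 to -0.18, with no turn of sign. The cause was not tested. The median of 12 other Abca1 regulators turned from 0.044 to -0.031 without p56. Depth limits genes of few counts, such as Nr1h3 and AI427809, since 1 count was worth 0.0700 to 0.0924 CPM.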
